A study of Mus musculus with 6 samples.

Results

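The genes of the neurotrophins, of Cntf and its relative Clcf1, and of their receptors were read in sciatic nerves of mice at postnatal day 14, in 3 arrays of P0 Cre Dicer mutants and 3 arrays of control littermates. The members were all probes that the platform annotation assigns to Ngfr, Bdnf, Ntf3, Ntrk2, Ntrk3, Sort1, Cntf or Clcf1. These were 24 of 45281 probes, and they read 7 of the 8 genes (of 19057 named genes on the array), since Ntf3 had no probe in the annotation used here and is not analysed here. The genotype label of the mutants reads P0 Cre Dicer F or N, where the sources used here do not explain F or N, and the controls are called control littermates with no allele named. P0 is the main protein of peripheral myelin, and its promoter drives Cre mainly in Schwann cells, the glia of peripheral nerve. Dicer cuts microRNA precursors to their mature length. Every sample is labelled with both sexes, and no source used here says how many animals an array held, so the p-values rest on the spread among these 6 samples, part of which may be technical. In 3 arrays against 3, an exact permutation test of a single value cannot give a p below 0.1.

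Values are the authors' normalized signals on a log2-like scale that runs from 7.96 to 15.91, with a median of 8.24 over all probes. Every difference is mutant minus control on that scale. The 18420 brightest probes by their mean over all 6 arrays were tested with limma, and a probe was called at a Benjamini-Hochberg adjusted p under 0.05. In that test 35.8% of the probes were called, 19.9% higher and 15.9% lower in mutants. Taking for each gene its brightest probe, 39.6% of 10273 genes were called, 22% higher and 17.6% lower. Of the 24 member probes, 10 passed this brightness filter. The other 14 were read from a fit on all probes, in which 14.1% of all probes and 2% of the probes below the filter were called. Array correlations over the tested probes were 0.973 to 0.993 among mutants, 0.992 to 0.995 among controls and 0.912 to 0.942 between the groups. Of 3 tested Schwann lineage genes, Sox10 stood at 13.98 ± 0.119 in mutants and 13.94 ± 0.0229 in controls (SD, n = 3 each). S100b was lower, at 8.91 in mutants and 10.10 in controls (limma adjusted p = 0.00236), and Sox10 and Erbb3 were not called. Of 6 genes of neuron cell bodies on the array, Prph alone passed the filter, at 8.50 in mutants and 8.51 in controls.

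Neurotrophins are secreted growth factors that are made as precursors and cleaved to their mature form. Mature neurotrophins signal through the Trk receptor tyrosine kinases, and all of them also bind the p75 neurotrophin receptor encoded by Ngfr, which joins with sortilin to bind the uncleaved precursors. Schwann cells carry p75 while they are immature, lose it as they myelinate, and regain it after nerve injury. Cntf is a cytokine of myelinating Schwann cells. Cntf and Clcf1 both act through the receptor Cntfr together with the signalling chains Lifr and gp130, the product of Il6st.

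The stretch around the start site of a gene is shown for the 3 members with a single start in the RefSeq promoter table (GRCm38.p6, 250 bases before to 50 after the start, 5′ to 3′ on the gene's strand): Ngfr, which moved most, Ntrk2, whose brightest probe was not called, and Cntf, which was lower in the fit on all probes. The table held 12 starts of 5 members in all, 7 of them of Bdnf and 2 of Ntf3. Capitals mark matches, on either strand, to any of 7 motifs: the GC box GGGCGG, the Egr motif GCGNGGGCG, the AP-1 motif TGANTCA, the cyclic AMP response element TGACGTCA, the TATA box TATAAA, the Tead motif GGAATG and the STAT motif TTCNNNGAA. No 2 marked matches overlap. Ngfr is shown at chr11:95587649-95587948 (minus strand), Ntrk2 at chr13:58806319-58806618 (plus strand) and Cntf at chr19:12765583-12765882 (minus strand). For Ntrk2, the start used in the promoter table lies downstream of the annotated gene start at 58806472, which falls inside the stretch shown.
Ngfr: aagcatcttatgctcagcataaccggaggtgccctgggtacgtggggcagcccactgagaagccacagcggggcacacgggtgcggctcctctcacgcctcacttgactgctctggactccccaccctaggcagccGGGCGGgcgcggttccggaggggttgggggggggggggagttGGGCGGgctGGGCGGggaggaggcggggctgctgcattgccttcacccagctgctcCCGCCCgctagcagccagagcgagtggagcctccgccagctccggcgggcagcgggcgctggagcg
Ntrk2: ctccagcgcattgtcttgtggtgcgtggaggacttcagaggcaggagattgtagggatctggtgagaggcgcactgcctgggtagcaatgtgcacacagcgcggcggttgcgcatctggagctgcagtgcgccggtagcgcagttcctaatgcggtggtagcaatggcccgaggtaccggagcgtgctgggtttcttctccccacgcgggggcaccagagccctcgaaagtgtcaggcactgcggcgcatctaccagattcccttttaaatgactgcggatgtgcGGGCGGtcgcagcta
Cntf: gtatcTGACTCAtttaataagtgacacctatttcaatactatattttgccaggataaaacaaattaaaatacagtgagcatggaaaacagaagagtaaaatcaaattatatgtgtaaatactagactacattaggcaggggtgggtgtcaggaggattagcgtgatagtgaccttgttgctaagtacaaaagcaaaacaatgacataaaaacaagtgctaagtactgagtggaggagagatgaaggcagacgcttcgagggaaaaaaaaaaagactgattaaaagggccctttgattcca
The Ngfr stretch held 4 GC boxes and none of the other motifs, where 35.7% of 32851 promoters in the table held at least 1 GC box and 5.49% held 4 or more. It was 71.7% G and C with 23 CpG pairs, against a median of 52.7% and 7 over the table. The Ntrk2 stretch held 1 GC box, 23 CpG pairs and 61.3% G and C. The Cntf stretch was 36.3% G and C with 3 CpG pairs, and its match was 1 AP-1 motif, which 7.81% of promoters held. Matches are letters in these windows and not measured binding sites. Of the other motifs, the Egr motif was in 5.55%, the cyclic AMP response element in 1.79%, the TATA box in 13.6%, the Tead motif in 14.7% and the STAT motif in 8.3% of promoters.

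Of the 4 member genes with a probe above the filter, both Ngfr and Sort1 rose in mutant nerves, while Ntrk2 and Ntrk3 were not called. Thus 2 of 4 genes were called, beside 39.6% of all genes tested, so the count itself is near the background, and of the 4 the rise of Ngfr alone passed a difference of 1. Called that far in the higher direction were 2.05% of the tested probes. The groups did not overlap in 6 of the 10 member probes above the filter, beside 52.1% of all tested probes. Among the 10273 genes ranked by their difference, Ngfr came 4th and Sort1 867th from the top. Since the arrays read whole nerve, more cells of a type and more RNA per cell cannot be told apart.

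Ngfr encodes the p75 receptor and sits on chromosome 11 (95568818 to 95587698, GRCm38.p6). Its bright probe, ILMN_2851288, read 13.79, 14.00 and 13.95 in the mutant arrays, against 10.58, 10.38 and 10.53 in the control arrays. The lowest mutant array lay 3.21 above the highest control array. The difference was 3.42 (SE 0.0817, 95% interval 3.22 to 3.62, limma adjusted p = 3.95e-06). The other Ngfr probes lay below the filter and moved the same way by far less. ILMN_1231408 read 8.39, 8.41 and 8.41 in mutants, against 8.10, 8.09 and 8.10 in controls, and differed by 0.31 (SE 0.017, limma adjusted p = 2.47e-04 over all probes). ILMN_2635314 read 8.30, 8.25 and 8.31 in mutants and 8.07, 8.06 and 8.09 in controls, which gave a difference of 0.21 (SE 0.0234, adjusted p = 0.00296 in the same fit). All 3 probes thus separated the groups, but their differences ran from 0.21 to 3.42, and all 3 are annotated to the same transcript. Where each probe lies in the transcript is not known here.

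**Figure D1:**
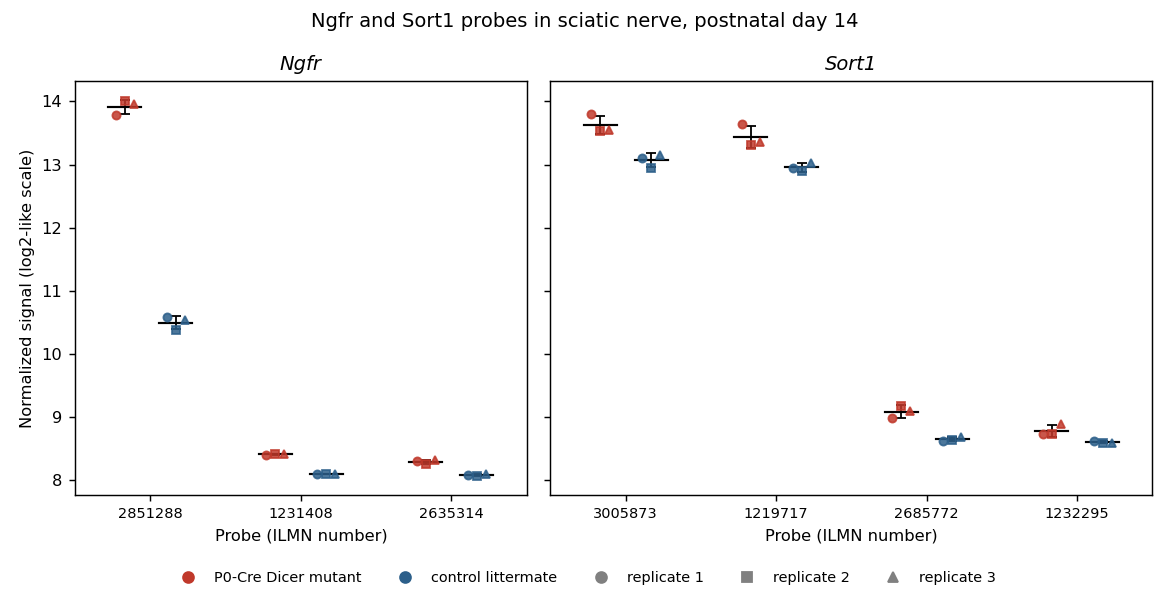
Normalized signal (y axis, log2-like scale) of each Ngfr and Sort1 probe (x axis) on every array, with red for mutants and blue for control littermates, the marker shape for the replicate, and black lines for the mean ± SD of 3 arrays. All mutant arrays lie above all control arrays in each of the 7 probes, and the bright Ngfr probe has the widest gap, 13.92 in mutants against 10.50 in controls on average.

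The genes whose brightest probe was most like Ngfr over the 6 arrays, by the Euclidean distance of values taken relative to each probe's control mean, were Alox5 (0.387), Cdh6 (0.673) and Tnc (0.683). Alox5, the lipoxygenase that starts leukotriene synthesis, read 12.17, 11.95 and 11.98 in mutants and 8.51, 8.53 and 8.55 in controls. The cadherin gene Cdh6 differed by 3.09 and the matrix glycoprotein gene Tnc by 3.09. The likeness describes the size of the group difference in these arrays, which dominates the distance.

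Sort1 encodes sortilin, the sorting receptor that partners p75, and lies on chromosome 3 (108283974 to 108361519). Its brightest probe, ILMN_3005873, read 13.80, 13.53 and 13.55 in mutants and 13.10, 12.94 and 13.16 in controls. It rose by 0.56 (SE 0.0942, 95% interval 0.33 to 0.79, limma adjusted p = 0.00446). A second bright probe, ILMN_1219717, read 13.64, 13.31 and 13.36 in mutants and 12.95, 12.89 and 13.03 in controls, and rose by 0.48 (limma adjusted p = 0.00918). The groups did not overlap in either, and mutant replicate 1 was the highest array in both. The dimmer ILMN_2685772 averaged 9.08 ± 0.0972 in mutants and 8.65 ± 0.0304 in controls (SD, n = 3 each) and rose by 0.44 (limma adjusted p = 0.00248). The dimmest, ILMN_1232295, stood at 8.78 ± 0.0929 in mutants and 8.60 ± 0.0162 in controls, and its difference of 0.18 was not called (limma adjusted p = 0.0612). It was called without mutant replicate 1 (adjusted p = 0.0376), with a trended, robust prior (0.0394) and with array weights (0.0333).

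Ntrk2 encodes TrkB, the receptor of Bdnf, and lies on chromosome 13 (58806472 to 59133970). Its brightest probe, ILMN_3138904, read 10.24, 10.34 and 10.41 in mutants and 10.36, 10.23 and 10.28 in controls. The groups overlapped, and the difference was 0.04 with a 95% interval from -0.11 to 0.20 (SE 0.0648, limma adjusted p = 0.668). ILMN_2705460, annotated to another transcript of the gene, read 8.61, 8.46 and 8.46 in mutants and 8.65, 8.66 and 8.65 in controls. All mutant arrays lay below the controls here, by 0.14 on average, but the probe was not called (limma adjusted p = 0.107). Without mutant replicate 1, which lay nearest the controls, its difference was -0.20 and it was called (adjusted p = 0.0194). The other Ntrk2 probes were below the filter, with mutant means of 8.27 and 8.22 and control means of 8.27 and 8.19, and neither was called over all probes (adjusted p = 0.998 and 0.498).

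Ntrk3 encodes TrkC, the receptor of the neurotrophin made from Ntf3, and lies on chromosome 7 (78179986 to 78581034). All 3 of its probes passed the filter at the dim end, and none was called (lowest unadjusted limma p 0.0644). ILMN_2632337 read 8.78, 8.63 and 8.92 in mutants, against 9.02, 8.97 and 8.90 in controls, a difference of -0.18 (95% interval -0.38 to 0.01, limma adjusted p = 0.134). ILMN_2599036, annotated to the same transcript, read 8.91, 8.52 and 8.70 in mutants, against 9.09, 9.01 and 8.79 in controls, a difference of -0.25 (interval -0.54 to 0.04, limma adjusted p = 0.158). The groups overlapped in both. ILMN_2632337 was called without mutant replicate 3, at -0.25 (adjusted p = 0.0446). ILMN_2599036 was called without mutant replicate 1, at -0.35 (adjusted p = 0.0312). ILMN_1253641, annotated to another Ntrk3 transcript, stood at 8.60 in mutants and 8.65 in controls (limma adjusted p = 0.656).

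**Figure D2:**
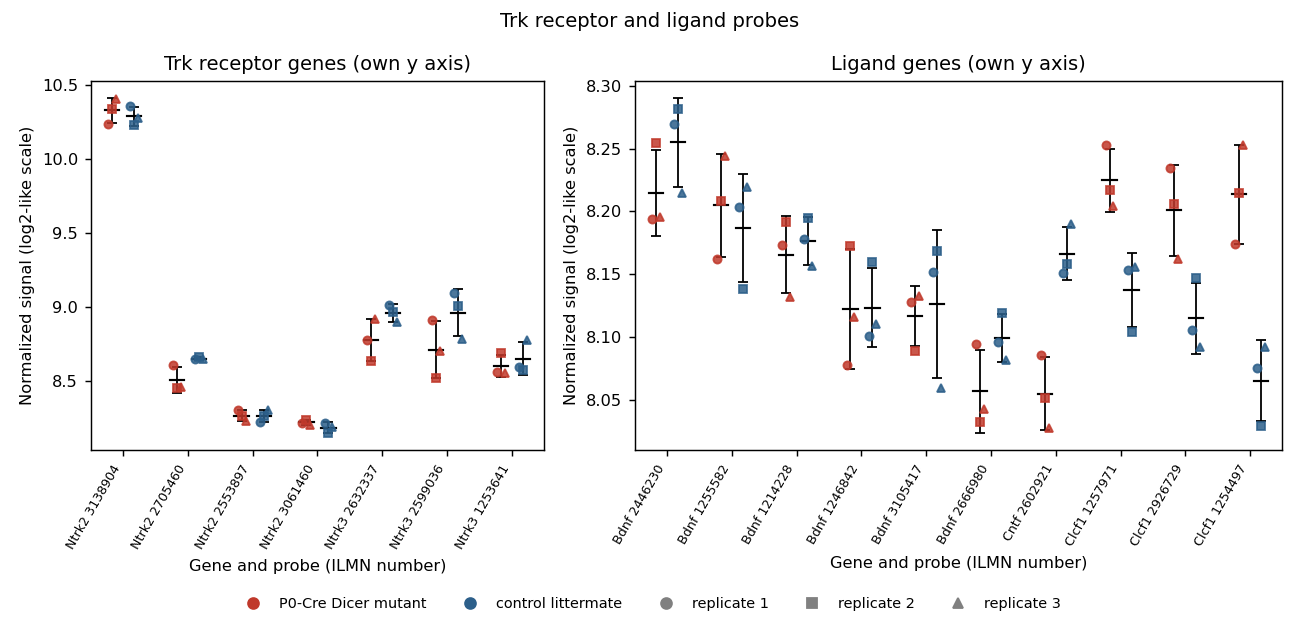
Normalized signal (y axes, log2-like scale, a separate range for each panel) of each Ntrk2, Ntrk3, Bdnf, Cntf and Clcf1 probe (x axes) on every array, red for mutants and blue for controls, with black lines for the mean ± SD of 3 arrays. The brightest Ntrk2 probe lies near 10.3 in both groups, all ligand probes lie between 8.03 and 8.28, and the mutant arrays lie above the controls in the 3 Clcf1 probes and below them in the Cntf probe.

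All 10 probes of the ligand genes lay below the brightness filter, within 8.03 to 8.28 on every array, near or below the median of all probes. No detection calls were used, so a probe that reads no transcript cannot be told from one that reads a little. Bdnf, which encodes a ligand of TrkB and lies on chromosome 2 (109674700 to 109727043), was read by 6 probes, none of which was called. Their differences ran from -0.04 to 0.02, with limma adjusted p from 0.395 to 0.991, and the lowest unadjusted p was 0.136. The groups overlapped in all 6 Bdnf probes.

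Cntf, on chromosome 19 (12763528 to 12765632), had 1 probe, which read 8.09, 8.05 and 8.03 in mutants and 8.15, 8.16 and 8.19 in controls. All mutant arrays lay below all control arrays, by 0.07 at the nearest. The difference was -0.11 (SE 0.0236, 95% interval -0.17 to -0.05) and was called lower in the fit on all probes (limma adjusted p = 0.0314), as were 0.838% of the probes below the filter. The call was lost with the replicate number as a block (adjusted p = 0.111) and when any array but mutant replicate 1 was left out (0.0816 to 0.102).

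Clcf1, also on chromosome 19 (4214238 to 4223505), encodes a secreted cytokine of the same receptor. All mutant arrays lay above all control arrays in its 3 probes, beside 15.5% of the probes below the filter that separated the groups in either direction. ILMN_1254497 read 8.17, 8.21 and 8.25 in mutants and 8.08, 8.03 and 8.09 in controls, which gave a difference of 0.15 (SE 0.0294) that was called higher (limma adjusted p = 0.0253 over all probes), as were 1.16% of the probes below the filter. The block ended this call (adjusted p = 0.0545), as did leaving out any single array except mutant replicate 1 (0.0558 to 0.0842). The other Clcf1 probes each differed by 0.09 and were not called (adjusted p = 0.0789 and 0.114). Both were called higher with a trended, robust prior (limma adjusted p = 0.0285 and 0.0303). At this end of the scale 95% of the probes below the filter differed by 0.0809 or less.

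**Figure D3:**
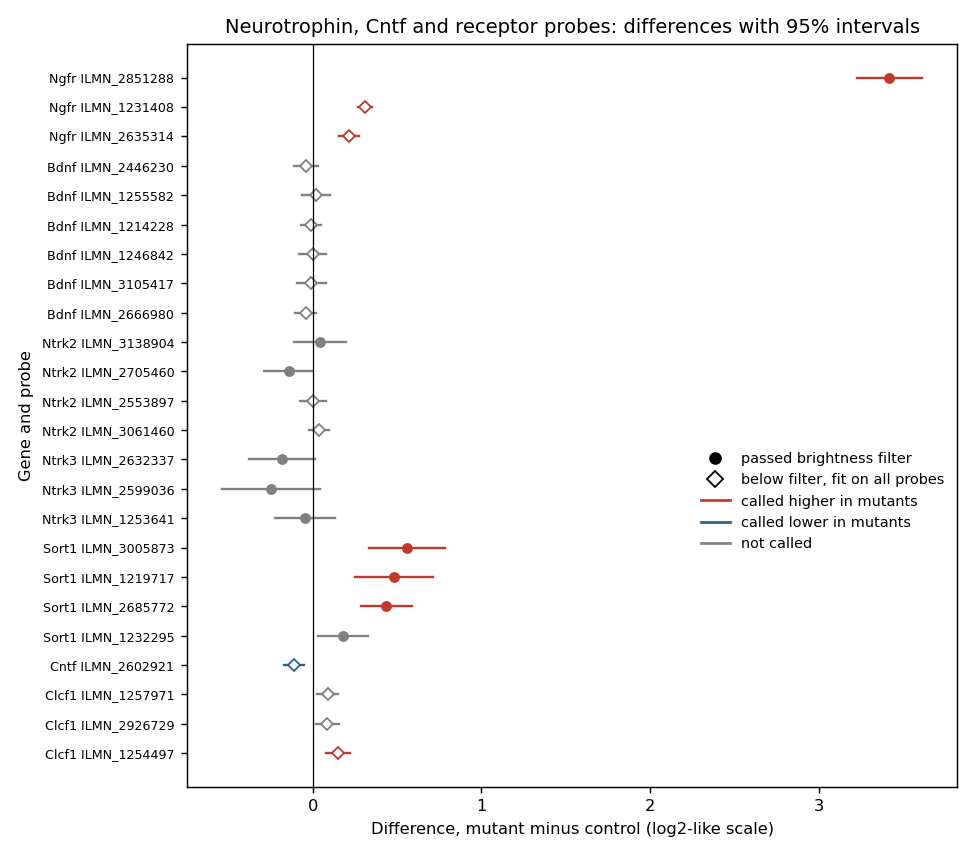
Difference between mutant and control means (x axis, log2-like scale) for all 24 probes (y axis), with the 95% interval of the limma fit as a line. Filled circles passed the brightness filter and open diamonds come from the fit on all probes, with red for probes called higher, blue for lower and grey for not called. The bright Ngfr probe stands at 3.42 and every other probe lies between -0.25 and 0.56.

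The further genes of these pathways were read from 6 lists with 84 genes, of which 71 were on the array and 51 passed the filter. By the brightest probe of each gene, 17 rose, 6 fell and 28 were not called, so 45.1% were called beside 39.6% of all genes. The median difference was 0.08, beside 0.01 over all genes. The lists are described by counts and medians alone.

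Of 8 further ligands, receptors and co-receptors of the neurotrophin system on the array, 5 passed the filter. Of these 1 rose, 1 fell and 3 were not called (40% called, beside 39.6% of all genes, median 0.04). The sortilin relative Sorcs2, which partners p75 as a receptor of the precursors, read 9.91, 10.32 and 10.33 in mutants and 8.86, 8.89 and 8.89 in controls. It rose by 1.31 (SE 0.117, limma adjusted p = 2.97e-04), and its probe below the filter rose by 0.26 (adjusted p = 0.00222 over all probes). Sorcs1, another sortilin relative, fell by 0.46 on its brightest probe, with 11.45 ± 0.138 in mutants and 11.91 ± 0.0321 in controls (SD, n = 3 each, limma adjusted p = 0.00444). The other 3 Sorcs1 probes were not called, and the next brightest differed by 0.15 in the opposite direction, so the fall rests on 1 probe. Ntf5, another TrkB ligand, stood at 8.15 in mutants and 8.18 in controls, below the filter. Rtn4r, also below it, was at 8.12 in mutants and 8.25 in controls. It was called lower in the fit on all probes (limma adjusted p = 0.0293), as were 0.838% of the probes below the filter. The brightest Sorcs3 probe was not called (limma adjusted p = 0.543). Its dimmer ILMN_3101483 was called higher by 0.14 over all probes (0.00656), as were 1.16% of the probes below the filter.

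In the list of precursor processing, 4 of 7 tested genes rose, 1 fell and 2 were not called. Thus 71.4% were called, beside 39.6% of all genes (median 0.25). Furin, the protease that cleaves the precursors inside the cell, read 12.30, 12.51 and 12.70 in mutants and 11.06, 11.16 and 10.92 in controls, which gave a rise of 1.45 (SE 0.113, limma adjusted p = 1.67e-04). Its relative Pcsk6 moved the other way, with 9.55, 9.36 and 9.35 in mutants and 10.61, 10.74 and 10.68 in controls, with a difference of -1.26 (SE 0.0731, adjusted p = 5.14e-05). The groups were far apart in both. Plat, the plasminogen activator that starts cleavage outside the cell, rose by 1.12, with 12.16 in mutants and 11.04 in controls (limma adjusted p = 2.84e-04). Pcsk7 rose by 0.29 and the gelatinase gene Mmp9 by 0.25 (limma adjusted p = 0.0329). The Mmp9 call was lost with the block (adjusted p = 0.0538), without filtering (0.0515) and without mutant replicate 2 (0.101) or 3 (0.0610) or control replicate 2 (0.0896) or 3 (0.0947).

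Of 13 tested genes of p75 shedding and signalling, limma called 4 higher and 0 lower, and 9 were not called. Thus 30.8% were called, beside 39.6% of all genes (median 0.10). At an unadjusted p under 0.05 the counts were 6 higher and 1 lower. Adam17, the protease that sheds the outer part of p75, read 12.34, 11.99 and 12.16 in mutants and 11.37, 11.17 and 11.21 in controls, which gave a rise of 0.91 (SE 0.103, limma adjusted p = 8.52e-04). Ncstn, a subunit of the gamma-secretase that then cuts the remaining stub, rose by 0.60 (limma adjusted p = 2.46e-04). Prdm4 and Zfp369, zinc finger proteins that bind p75, rose by 0.71 and 0.23. Another gamma-secretase gene, Aph1a, named after its values were seen, was not called on its brightest probe (-0.11, limma adjusted p = 0.149) but was lower on the next, at 8.14 in mutants and 9.29 in controls. Psenen, a further gamma-secretase gene named after its values were seen, read 10.64, 11.76 and 11.83 in mutants and 12.14, 12.26 and 12.34 in controls. The groups did not overlap, but its difference of -0.84 was not called (limma adjusted p = 0.0766). Without mutant replicate 1, its lowest array, the difference was -0.45 and was called (adjusted p = 0.00257), as it was without mutant replicate 3 (0.0486) and with the block (0.0399), a trended, robust prior (0.0477) or array weights (0.0182).

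Of 12 tested Trk adaptors and signalling genes, 3 rose, 2 fell and 7 were not called. Thus 41.7% were called, beside 39.6% of all genes (median -0.07). Kidins220, a scaffold bound by Trk receptors, rose by 0.39, the adaptor gene Crk by 0.62 and the adaptor gene Shc1 by 0.27, with limma adjusted p of 0.0137, 0.0252 and 0.0174. All 3 of these calls were lost without control replicate 2 (adjusted p = 0.0522, 0.0875 and 0.0521), which left 2 called genes, both lower. The other 2 Crk probes above the filter were not called (0.01 and 0.13, adjusted p = 0.921 and 0.111), so its rise rests on 1 of 3 probes. The Crk call was also lost without control replicate 1 (0.0824) or 3 (0.0529) and without filtering (0.0721), and that of Shc1 with a trended, robust prior (0.0780). Tiam1, an exchange factor for the GTPase Rac, read 10.96, 11.14 and 11.23 in mutants and 11.91, 11.72 and 11.87 in controls, and fell by 0.73 (limma adjusted p = 0.0011, SE 0.0877). Sh2b1, another adaptor gene, was at -0.36 on its brightest probe (limma adjusted p = 0.00159) and at -0.13 on the other, which was not called.

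**Figure D4:**
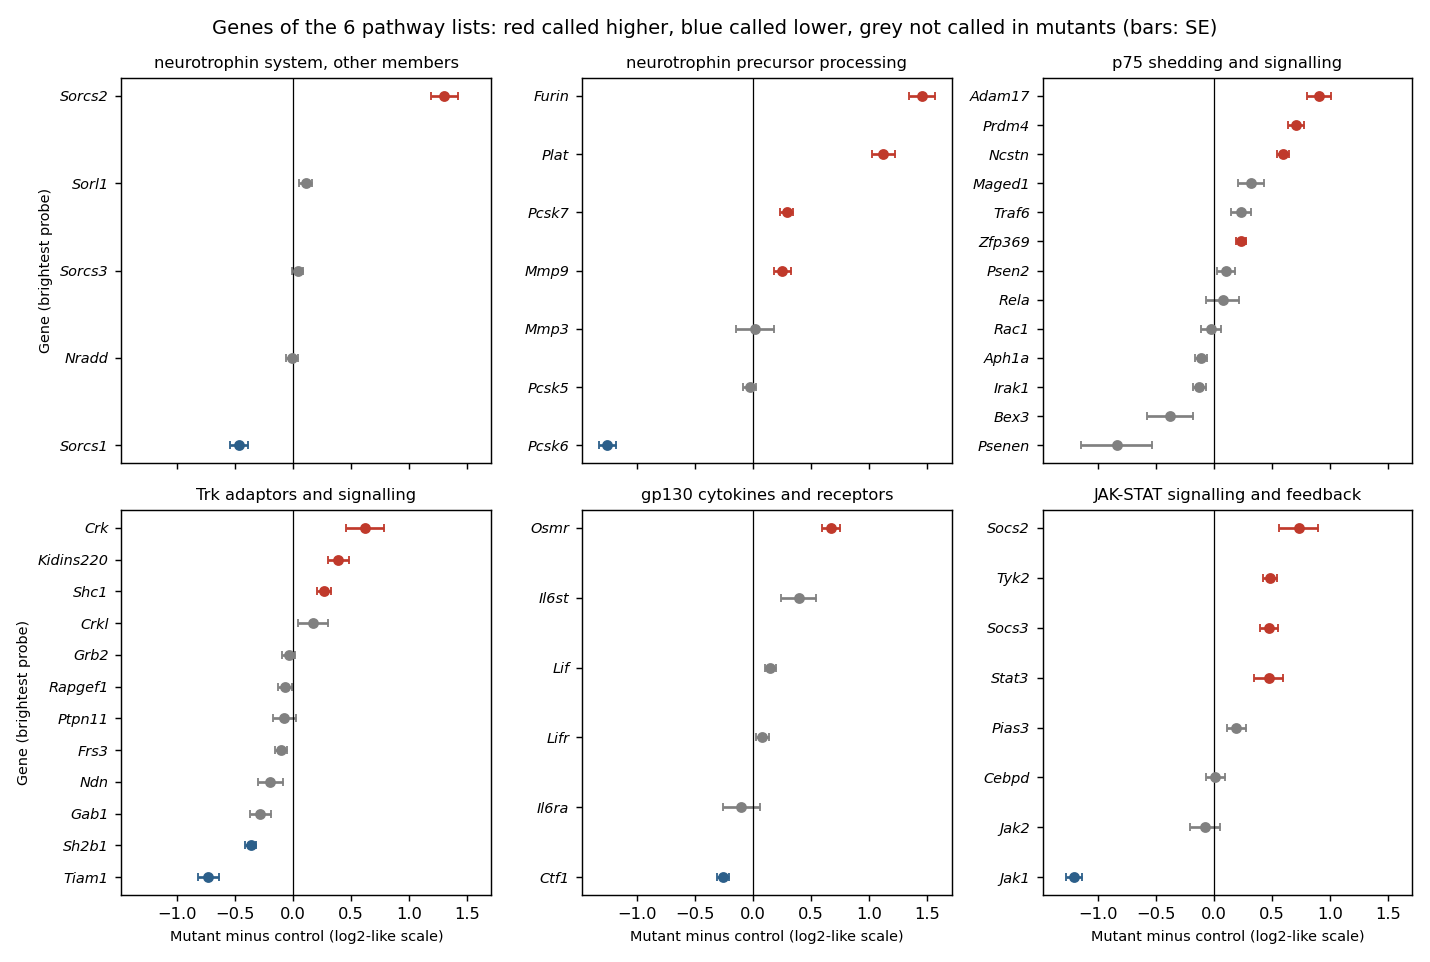
Difference between mutant and control means (x axes, log2-like scale) of the brightest probe of each tested gene (y axes) in the 6 pathway lists, 1 panel a list, with the SE of the limma fit as bars. Furin, Sorcs2 and Plat lie above 1 and Pcsk6 and Jak1 below -1, and 28 of the 51 genes are grey, that is, not called.

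Of 6 tested gp130 cytokines and receptors, 1 rose, 1 fell and 4 were not called. Thus 33.3% were called, beside 39.6% of all genes (median 0.11). The oncostatin M receptor gene Osmr read 9.77, 9.56 and 9.50 in mutants and 8.96, 8.95 and 8.92 in controls, which gave a rise of 0.67 (SE 0.0781, limma adjusted p = 9.67e-04). Ctf1, the gene of the cytokine cardiotrophin, was at 8.41 in mutants, against 8.67 in controls, and fell by 0.26 (limma adjusted p = 0.00961). The brightest Lif probe, at 8.44 in mutants and 8.29 in controls, passed the filter (lowest kept mean 8.34) only through the mutant arrays. It differed by 0.15 and was not called (limma adjusted p = 0.0531), but was called higher in the fit on all probes (0.0147). There, ILMN_3137287 of Lif, below the filter, was also called higher by 0.12 (adjusted p = 0.0106), and its other probes were not called. Il6, Il11 and Osm lay below the filter and were not called. For the parts of the Cntf receptor itself, no brightest probe was called. Cntfr lay below the filter, with 8.22 and 8.14 in mutants and 8.20 and 8.17 in controls for its 2 probes, and was not called. Lifr stood at 8.55 in mutants and 8.47 in controls on its brightest probe (limma adjusted p = 0.308). Of its 2 probes below the filter, ILMN_1242960 was called higher in the fit on all probes, at 8.37 in mutants and 8.22 in controls (difference 0.15, limma adjusted p = 0.0409), and the other was not (adjusted p = 0.121). Il6st read 10.72, 10.50 and 10.36 in mutants and 10.31, 10.28 and 9.83 in controls. Its difference of 0.39 was not called (limma adjusted p = 0.0899), but was with the block (adjusted p = 0.0190) and with array weights.

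Of 8 tested genes of JAK-STAT signalling and feedback, 4 rose, 1 fell and 3 were not called. Thus 62.5% were called, beside 39.6% of all genes (median 0.33). The kinase gene Jak1 read 9.23, 9.26 and 9.31 in mutants and 10.50, 10.34 and 10.58 in controls on its brightest probe, a difference of -1.21 (SE 0.0723, limma adjusted p = 5.87e-05). Its next probe, at 9.29 in mutants and 9.11 in controls, was not called (adjusted p = 0.312), so the fall rests on 1 of the probes. The feedback inhibitor genes Socs2 and Socs3 rose by 0.73 and 0.47, the kinase gene Tyk2 by 0.49 and the transcription factor gene Stat3 by 0.47 (limma adjusted p = 0.0149, 0.0037, 0.00117 and 0.0240). The calls of Stat3 and Socs2 were both lost without control replicate 1 (adjusted p = 0.0579 and 0.0597), which left 3 called genes. That of Stat3 was also lost without mutant replicate 3 (0.0521) or filtering (0.0630), and that of Socs2 without control replicate 3 (0.0567). These Stat3 values are of its brightest probe. Its dimmer ILMN_3096144 rose by 0.28 (limma adjusted p = 0.00446, and 0.00121 over all probes), and ILMN_2589790 was not called (0.19, adjusted p = 0.0983).

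Markers of several cell states moved along with Ngfr. All 6 tested genes of myelinating Schwann cells fell, beside 17.6% of all genes called lower. Their list mean was 11.42 to 11.67 over the mutant arrays and 14.03 to 14.15 over the control arrays. All 3 tested markers of immature or non-myelinating Schwann cells rose (10.27 to 10.35 in mutants, 9.34 to 9.42 in controls). L1cam, Gfap and Cdh2 of the same list lay below the filter. Their brightest probes were not called over all probes (limma adjusted p = 0.987, 0.469 and 0.767). All 3 tested markers of cell division also rose (11.47 to 11.75 in mutants, 9.50 to 9.58 in controls). Of all genes, 22% were called higher. Mast cell genes were higher in 4 of 5 (80%, beside 22% of all genes called higher), with list means of 9.67 to 10.08 in mutants and 9.13 to 9.24 in controls. Fibroblast genes were higher in 2 of 6 (33.3%, beside the same 22%), with 13.51 to 13.86 in mutants and 13.16 to 13.30 in controls. Of 3 tested Schwann lineage genes S100b fell, with 8.91 ± 0.293 in mutants and 10.10 ± 0.228 in controls, while Sox10 and Erbb3 were not called. The list mean of skeletal muscle, a tissue next to the nerve, was 9.71 to 11.98 in mutants and 11.82 to 13.24 in controls, and limma called 0 of its 4 genes (0 also at an unadjusted p under 0.05). For macrophages the list mean was 10.06 to 10.22 in mutants and 10.13 to 10.26 in controls, and for endothelial cells 10.07 to 10.26 in mutants and 10.15 to 10.44 in controls. Mural cell genes had 10.77 to 10.81 in mutants and 10.44 to 10.97 in controls, perineurial genes 10.95 to 11.15 in mutants and 11.09 to 11.45 in controls, and fat genes 9.96 to 10.22 in mutants and 10.21 to 10.69 in controls. Of the tested genes of these 5 lists, Cldn5 (endothelial, -0.88) and Cd163 (macrophage, -0.76) fell and Pdgfrb (mural, 0.36) rose. The part of these shifts in the values of Ngfr, Sort1 and the pathway genes was not tested.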

How the data were processed

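Total RNA of sciatic nerve was hybridised to 1 Illumina bead array per sample (6 arrays), and samples were grouped by their titles. The deposited log2-like values were normalized by RMA and handled with limma by the authors, per the labels' design text, and lumi 1.8.3 is named in the submitters' processing notes. Whether the scale is plain log2 or variance-stabilised is not settled, and on the second a difference among dim probes understates the log2 fold change. No source used here names a background correction.

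From these values the 18420 probes with the highest mean were kept, the number that the design text states for its own present and absent filter, and limma 3.58.1 in R 4.3.3 (lmFit, eBayes, 2-sided) compared the groups without covariates. Probes below the filter, whose lowest kept mean was 8.34, were read from the same fit on all 45281 probes. Gene names came from the platform annotation (34885 probes with 1 symbol, 18 with several, 10378 with none), and the brightest kept probe stood for a gene. The fit was tested on simulated data. With 3 arrays a group, their number limits the precision.

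Named were all member probes, up to 5 called genes of each pathway list, ligands and receptors, and marker genes. The members and lists were chosen with earlier results of these data known. Deviations of same-numbered mutant and control samples correlated by 0.165, 0.155 and 0.224. Differently numbered samples were not compared, so these values cannot show whether the number marks a pairing. In an alternative fit the number, taken from the titles, was treated as pairing the samples. Other alternatives were no filter, a stricter filter, a trended robust prior, array weights, probe means and leaving out each array.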

Additional observations from a re-analysis of the deposited data

How the results depend on the processing

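In every refit, the bright Ngfr probe kept its call, with differences from 3.36 to 3.48 and adjusted p of 1.33e-04 or less. The 3 called Sort1 probes (adjusted p of 0.0406 or less) and both dim Ngfr probes (0.0195 or less) were called in each refit that held them. The stricter filter held neither ILMN_2685772 of Sort1 nor the dim Ngfr probes, and Sort1 is lost where a difference of at least 1 is required. Over the 24 member probes, 208 of 231 alternative values stayed on the same side of the threshold, 12 lost a call, 11 gained one and 0 called values reversed. The count of called member genes was 2, 2 to 3 without single arrays, 3 with array weights, 3 on all probes (Cntf added) and 1 (Ngfr) with a difference of at least 1 required. Array weights called 9736 probes (52.9%) and 57% of all genes, and 33 of the 51 list genes (64.7%). With them Ntrk3 was lower (-0.30, adjusted p = 0.00670) as was the ILMN_2705460 probe of Ntrk2 (-0.19, 0.00467). With a difference of at least 1 required, 828 of all tested probes were called in place of 6596, and without single arrays 4598 to 7502. The called genes of the 6 lists were 23, and 19 to 26 without single arrays. Array weights called 8 genes of p75 signalling and 4 of the gp130 list in place of 4 and 2. With the mean of all probes of a gene, 1 of the further neurotrophin genes was called in place of 2, and with a stricter filter that kept 11320 probes 1 gp130 gene was. With the replicate number as a block, 6287 probes were called, 2 member genes and 26 list genes, and of the member probes the calls of Cntf (adjusted p = 0.111) and Clcf1 (0.0545) alone were lost. The cause of these changes was not tested. Nearness to the dim end of the scale limits what the probes of Bdnf, Cntf and Clcf1 can show.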
